A study of Mus musculus with 5 samples.

Results

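Solute carriers are membrane proteins that move nutrients, metabolites and ions across the plasma membrane and the membranes of organelles. The genes described here are those of the deposited table whose symbol begins with Slc and a family number, other than Slc25, chosen by a value of 10 or more in 2 or more of the 5 libraries. Of 213 rows with such a symbol, 176 met this threshold, among 12777 genes of the whole table that met it. They fell into 45 families. The 39 rows of Slc25, the mitochondrial carriers, were left out. Values of all 5 libraries thus chose the members, by level and not by the contrast of treatments.

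The cells were leukocytes sorted for CD45 from the lungs of mice bearing MC38 tumours, a mouse colon adenocarcinoma line. The labels write the tumours as MC38/MC38 without saying what the doubled name stands for. They give 3 control libraries (ctrl) and 2 libraries of the irradiated group (IR). The sources used here give no strain, age or radiation dose. One protocol text, shared by every library, states that tumours were irradiated and lungs taken 3 days later, so the treatment label alone sets the groups apart. Nothing states whether libraries came from separate animals. The p-values therefore measure spread among these samples alone, and that spread may be technical.

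The family number of a solute carrier follows sequence relationship, and most families share a kind of substrate. In leukocytes, glucose carriers of the Slc2 family and lactate carriers of the Slc16 family serve glycolysis. Slc7 light chains paired with the heavy chain Slc3a2 serve growth of activated lymphocytes. Phagocytes move iron and other metals through Slc11a1 and Slc40a1. Most zinc carriers of the Slc30 family take zinc out of the cytosol into vesicles or out of the cell, and those of the Slc39 family bring it into the cytosol.

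Across the 5 libraries the values, read counts that the authors scaled, totalled 7232126 to 8414753 per library. Dividing by the step that best fitted the values under 10 put the depth at roughly 8040000 to 10270000 reads. This is an estimate, since low values lay only near multiples of such a step. The solute carriers held between 0.546% and 0.688% of each total. Ptprc, which encodes CD45, was 15842, 15543 and 15788 in ctrl and 17369 and 27246.5 in IR. The median absolute log2 difference over the members was 0.730 between the 2 IR libraries and 0.490 to 0.609 between pairs of ctrl libraries. Of the 176 members, IR replicate 2 listed 16 at 0 and IR replicate 1 listed 4, where the ctrl libraries listed 3 to 13. Over all genes tested, 6.01% were at 0 in IR replicate 2 and 0.751% to 3.87% in the others.

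Irradiation of the tumour was compared with control by a limma fit over all 12777 genes, with p-values adjusted over all of them and called under 0.05. Slc16a3, a lactate carrier, rose in IR and Slc30a5, a zinc carrier, fell. The other 174 members did not pass. The 2 calls made up 1.14% of the members, where 1.5% of all genes tested were called (1.14% higher and 0.36% lower). The share of solute carriers that changed was thus close to that of the whole table. Among the 63 members with a mean of 200 or more, 3.17% were called, against 3.12% of all genes at that level. At that level 9 members, or 14.3%, had a fold change of at least 2 in either direction, against 5.28% of all genes.

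The median log2 fold change, on the scale of log2(value + 1), was 0.00 over the members and -0.05 over all genes tested. Its middle range, from the lower to the upper quartile, was -0.52 to 0.49 over the members and -0.53 to 0.41 over all genes. In 57 members the IR libraries did not overlap with ctrl, 26 with higher and 31 with lower values. That is 32.4% of the members, where 31.5% of all genes tested did not overlap (15.2% higher and 16.3% lower). Unadjusted p-values under 0.05 were found for 26 members, or 14.8%, against 15% of all genes. A fold change of at least 2 in either direction was found for 47 members, or 26.7%, against 23.5% of all genes. In most members the values of the IR and ctrl libraries overlapped.

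**Figure D1:**
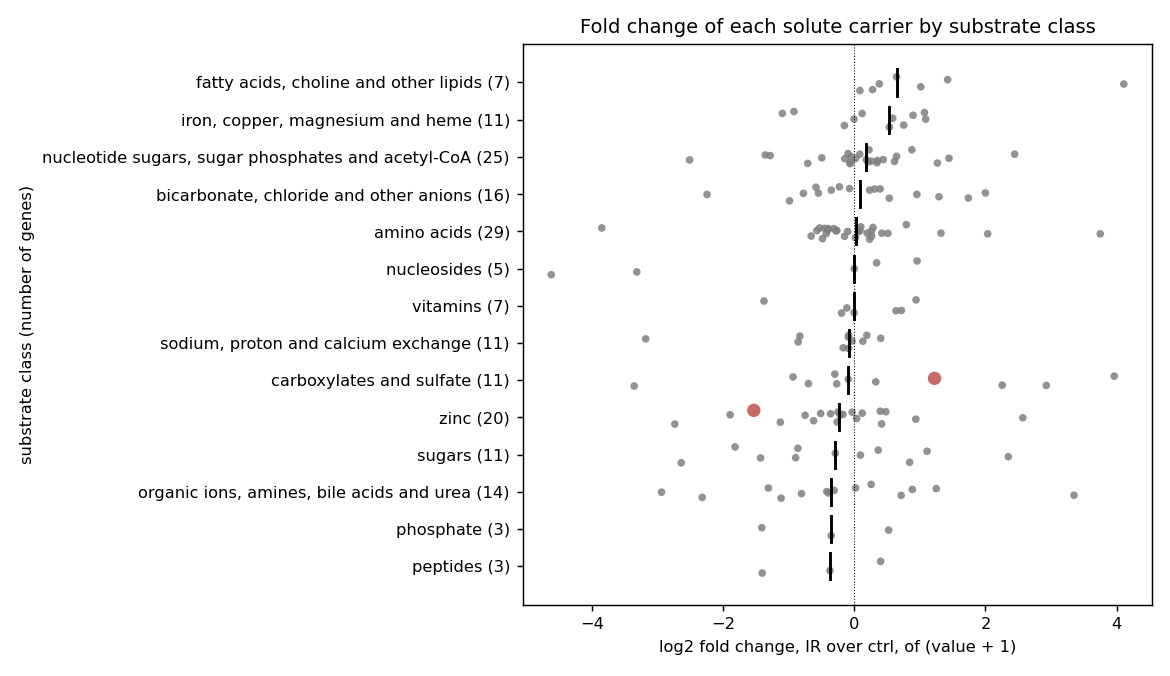
Log2 fold change of (value + 1), IR over ctrl, on the x axis for each of the 173 solute carriers (points) by substrate class on the y axis, with the class median as a black bar. Large red points are Slc30a5 (-1.53) and Slc16a3 (1.22), which passed the adjusted threshold; points beyond 2 or -2 belong mostly to genes of low value.

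Marker genes of cell types were counted in the same fit. Of 12 neutrophil markers tested, 12 had positive fold changes and 5 rose. Their sum was 29079 to 51336 in ctrl, then 70974 and 135912 in IR replicates 1 and 2, with none of the 12 at 0 in all libraries. Slc16a3, Slc2a6, Slc2a3 and Slc11a1 had the same order, with IR replicate 2 highest, IR replicate 1 next and every ctrl library below. Other members had this order too, among them Slc40a1, Slc44a1 and Slc28a2, and the genes with it were not counted. Both IR libraries lay above every ctrl library in 26 of the 176 members and in 15.2% of all genes tested. All 9 T cell markers had negative fold changes and 1 fell, with sums of 4471 to 5169 in ctrl and 3244 and 2668 in IR. The 8 B cell markers had negative fold changes, of which 1 fell, and their sums overlapped (13497 to 23019 in ctrl, 16356 and 11049 in IR). Of the 11 alveolar macrophage markers, 9 had negative fold changes, with sums of 14083 to 14880 in ctrl and 13631 and 12988 in IR. The largest part of that sum was Chil3, at 6483 to 7413 in ctrl and 8962 and 6769 in IR. Atp6v0d2, Ear2, Fabp4, Krt79, Mrc1 and Plet1 were lower in both IR libraries than in any ctrl library, and the others overlapped. The median log2 fold change of this list was -0.54. Airway epithelial markers, from cells that the sort should remove, summed to 21420 to 27438.5 in ctrl and 119007 and 57538 in IR. Of these 6 markers, 5 had positive fold changes and 1 had a negative one, and 2 rose. Most of the sum was Scgb1a1, at 18790 to 23115 in ctrl and 103972 and 50989 in IR. The part of these lists in the values of the solute carriers was not tested. In bulk samples, fewer cells of a type and less RNA per cell cannot be told apart.

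The Slc16 family, named for monocarboxylates, made up the carboxylate class, in which 1 of 11 members rose and 10 did not pass. Slc16a3 (MCT4), the proton-coupled exporter of lactate from glycolytic cells, lies on chromosome 11, from 120948484 to 120959000 (GRCm38.p6). Its values were 631, 1222 and 1268 in ctrl and 1864 and 2886.5 in IR. Both IR libraries lay above every ctrl library. The log2 fold change was 1.22 ± 0.29 (standard error; limma adjusted p = 0.0462), a 2.34-fold rise. Ctrl replicate 1 was the lowest library for this gene. The call was lost without ctrl replicate 1 (limma adjusted p = 0.208), ctrl replicate 2 (0.110) or IR replicate 2 (0.274), with a pseudocount of 0.5 (0.0514), with the threshold raised to 50 (0.0554) and with array weights (0.122).

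The promoter of Slc16a3 is shown because this gene carries the rise. The window runs from 250 bases before to 50 bases after a start site that RefSeq lists on the plus strand of GRCm38.p6, chr11:120948817-120949116. That site lies 583 bases inside the span of the gene given above, and the table of windows does not name its transcript. Capitals mark ACGTG, the core of the site bound by hypoxia-inducible factors and by several other factors. Both strands were searched.
Slc16a3: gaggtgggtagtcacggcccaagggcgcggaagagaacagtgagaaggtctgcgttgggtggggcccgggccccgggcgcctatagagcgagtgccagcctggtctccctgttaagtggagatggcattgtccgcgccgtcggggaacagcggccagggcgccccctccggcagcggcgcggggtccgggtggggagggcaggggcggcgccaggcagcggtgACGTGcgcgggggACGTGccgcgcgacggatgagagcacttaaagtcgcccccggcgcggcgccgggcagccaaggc
The letters ACGTG occurred at 2 places here, both on the plus strand. The window of Slc2a6, described next, held none. They occurred in 19.6% of 32851 promoter windows of this length and in 28.3% of 166 windows of the members. A match is a run of letters and not evidence of binding.

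Slc16a1 (MCT1), which imports or exports lactate, had the opposite sign. It was 210, 269.5 and 182 in ctrl and 87.9 and 146 in IR, with a log2 fold change of -0.93 ± 0.42 (standard error; limma adjusted p = 0.301). The groups did not overlap, but the difference did not pass. Slc16a10, a carrier of aromatic amino acids, was 259, 339 and 215 in ctrl and 212 and 126 in IR (log2 fold change -0.70, limma adjusted p = 0.399). Slc16a6 was 267, 668 and 486 in ctrl and 491 and 630 in IR, so the groups overlapped. Slc16a11 and Slc16a12 were low in ctrl, at 2.9 to 10.9 and 0 to 12.4, and reached 87.0 and 38.7, and 43 and 102, in IR replicates 1 and 2. Neither passed (limma adjusted p = 0.274 and 0.197). Slc16a5 was between 5.0 and 37.5 in ctrl and at 1.9 and 0 in IR.

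Sugar carriers held 11 members and none passed. The closest was Slc2a6 (GLUT6), a hexose carrier of lysosomes, with a limma adjusted p of 0.0505. It was 333, 481 and 416 in ctrl and 633 and 1215 in IR. Every IR value lay above ctrl, and the log2 fold change was 1.11 ± 0.29 (SE). It passed with a pseudocount of 5 (limma adjusted p = 0.0310) and with array weights (0.0257). Without ctrl replicates 1, 2 and 3 in turn the limma adjusted p was 0.287, 0.137 and 0.169. The log2 fold change was 1.58 without IR replicate 1 and 0.64 without IR replicate 2.

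Slc2a3 (GLUT3), a high-affinity glucose carrier of neurons and leukocytes, was 1290.5, 2151 and 2193 in ctrl and 2456.5 and 4375 in IR. The groups were separated, by a small margin in IR replicate 1. The log2 fold change was 0.84 ± 0.27 (standard error; limma adjusted p = 0.140). Slc2a1 (GLUT1), the widespread basal glucose carrier, was 999.8, 1239 and 1430 in ctrl and 1096 and 2215 in IR. Here the groups overlapped, and the log2 fold change of 0.36 had a 95% interval of -0.18 to 0.91. Summed over the class, sugar carriers reached 3106 to 4618 in ctrl, then 4643 and 8190 in IR replicates 1 and 2. Slc2a3, Slc2a1 and Slc2a6 made up most of this sum. Of the 11 members, 5 had positive and 6 had negative fold changes, and the class median of the log2 fold change was -0.29.

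**Figure D2:**
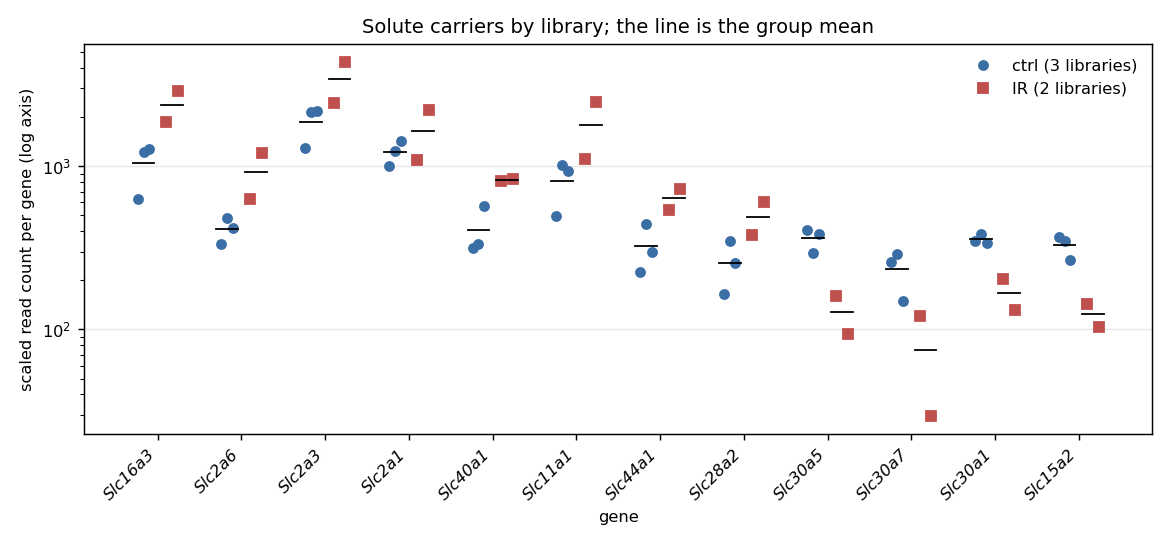
Scaled read count per gene (log axis) of 12 solute carriers (x axis) in 3 ctrl libraries (circles) and 2 IR libraries (squares), with group means as lines. Slc16a3 sits at 631 to 1268 in ctrl and at 1864 and 2886.5 in IR, while Slc30a5, Slc30a7, Slc30a1 and Slc15a2 sit lower in both IR libraries than in any ctrl library.

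Zinc carriers held 20 members, of which 1 fell and 19 did not pass. Slc30a5 (ZnT5) loads zinc into the early secretory pathway, where it pairs with Slc30a6 and supplies zinc-dependent ectoenzymes. The gene lies on chromosome 13, from 100802645 to 100833480 (GRCm38.p6). It was 405, 293 and 385.5 in ctrl and 161 and 94.1 in IR, clearly apart. The log2 fold change was -1.53 ± 0.37 (standard error; limma adjusted p = 0.0379), so that IR was 2.89-fold lower. The call was lost without ctrl replicate 1 (0.254), ctrl replicate 2 (0.115), ctrl replicate 3 (0.189) or IR replicate 2 (0.184), with no filter (0.0508) and with robust estimation off (0.0502).

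The Slc30 family had 7 members, and 5 of these had a negative fold change. In 4 of the 7, namely Slc30a7, Slc30a5, Slc30a1 and Slc30a9, both IR libraries lay below every ctrl library. Over all genes tested, 16.3% were separated in that direction. Slc30a7 (ZnT7), a zinc carrier of the Golgi apparatus, was 260, 291 and 150 in ctrl and 121 and 29.4 in IR. Its log2 fold change was -1.89 ± 0.54 (standard error; limma adjusted p = 0.0787), with most of the difference in IR replicate 2. Slc30a1 (ZnT1), which exports zinc across the plasma membrane, was 347, 386 and 340 in ctrl and 203 and 131 in IR. That gave -1.13 ± 0.35 (standard error; limma adjusted p = 0.104), and the ctrl libraries were close to each other. Slc30a9 was 315, 265 and 217.5 in ctrl and 170 and 171 in IR (log2 fold change -0.62, limma adjusted p = 0.437).

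Slc30a6, the partner of Slc30a5, was far less abundant and had the opposite sign. It was 1.7, 0.9 and 13.8 in ctrl and 22.4 and 26 in IR (limma adjusted p = 0.502). The groups did not overlap, but all values were low. Slc30a4 overlapped between groups, at 82.2 to 199 in ctrl and 96.3 and 102 in IR. Slc30a2 was listed at 0 in 3 of the 5 libraries.

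Of the Slc39 family, which moves zinc into the cytosol, 13 members were measured. None passed, and in none were the groups separated, where 31.5% of all genes tested were separated in either direction. Slc39a6 was 270 ± 65.8 (SD, n = 3) over ctrl and 227 ± 61.8 (SD, n = 2) over IR. Slc39a1, a plasma membrane importer, was 332, 229 and 177 in ctrl and 149.5 and 186 in IR. Slc39a14, which also carries iron and manganese, ranged from 32.9 to 282 within ctrl alone, and was 77.6 and 315 in IR. Slc39a8, likewise a carrier of several metals, was 2.5 to 53.9 in ctrl and 58 and 21 in IR. The median log2 fold change was -0.17 for Slc39 and -0.62 for Slc30. The difference between the families was not tested.

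Promoter windows of the zinc exporters Slc30a5 and Slc30a1 are shown because both genes were lower in both IR libraries. Slc30a1 is a known target of the zinc-sensing factor MTF-1. Capitals mark TGCACNC or TGCGCNC on either strand, the core letters of the metal response element, so a match on the minus strand is printed as its reverse complement. The windows span 250 bases before to 50 bases after a listed start site, which lies 53 bases inside the span of Slc30a5 and 84 inside that of Slc30a1, at chr13:100833378-100833677 on the minus strand and chr1:191906531-191906830 on the plus strand (RefSeq, GRCm38.p6).
Slc30a5: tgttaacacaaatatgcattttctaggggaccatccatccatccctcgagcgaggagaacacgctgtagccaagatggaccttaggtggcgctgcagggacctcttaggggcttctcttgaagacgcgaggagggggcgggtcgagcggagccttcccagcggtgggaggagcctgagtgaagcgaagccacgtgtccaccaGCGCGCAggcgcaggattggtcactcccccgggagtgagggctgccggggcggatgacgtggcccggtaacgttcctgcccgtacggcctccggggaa
Slc30a1: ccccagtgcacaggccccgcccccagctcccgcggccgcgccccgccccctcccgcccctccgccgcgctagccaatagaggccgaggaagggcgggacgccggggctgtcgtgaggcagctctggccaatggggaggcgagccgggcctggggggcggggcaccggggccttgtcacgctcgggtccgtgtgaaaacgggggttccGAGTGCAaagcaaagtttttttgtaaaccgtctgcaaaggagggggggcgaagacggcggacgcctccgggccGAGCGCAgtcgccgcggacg
The window of Slc30a5 held 1 match and that of Slc30a1 held 2, where 25.7% of all 32851 windows and 39.2% of the 166 windows of the members held at least 1. Here too the shares rest on unlike sets, and their difference was not tested. The window of Slc30a5 also held ACGTG in 3 matches, 2 of them overlapping as the strands of a palindrome. ACGTG therefore occurred in the windows of the member that rose and of the member that fell.

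**Figure D3:**
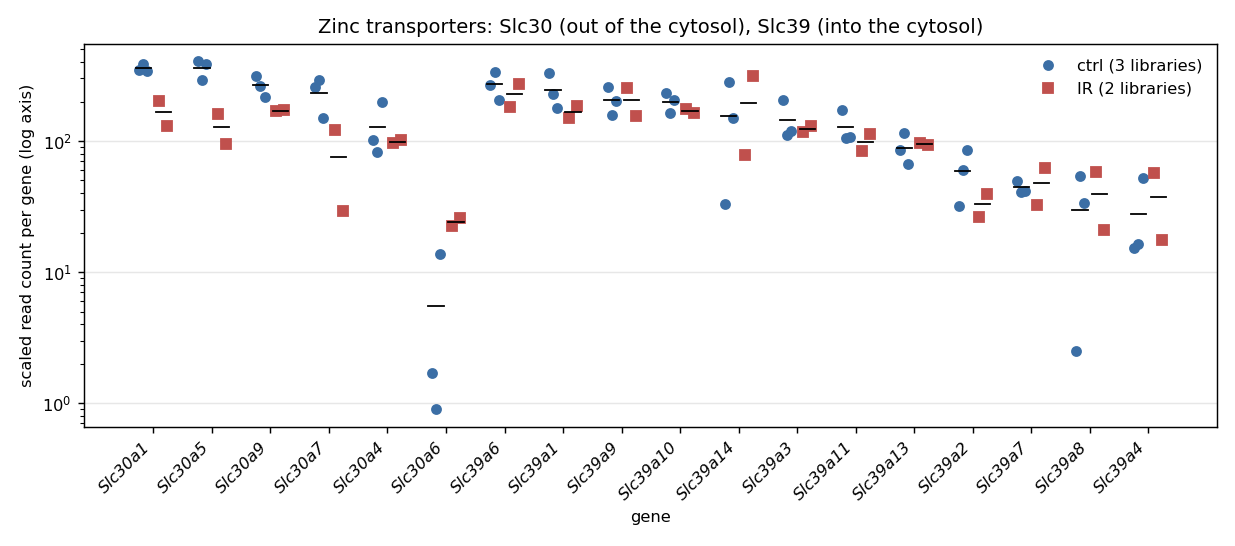
Scaled read count (log axis) of 18 zinc transporters (x axis), the Slc30 family at the left and the Slc39 family at the right, in ctrl (circles) and IR (squares), with group means as lines. Slc30a1, Slc30a5, Slc30a9 and Slc30a7 are lower in both IR libraries, whereas the Slc39 genes overlap; Slc30a2 and Slc39a12, with a 0 in at least 1 library, are not drawn.

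Oligopeptide carriers of the Slc15 family had 3 members and none passed. Slc15a2 (PEPT2), a proton-coupled importer of dipeptides and tripeptides found on macrophages and on several epithelia, was 366, 348 and 268 in ctrl and 144 and 103 in IR. The groups were clearly apart, with a log2 fold change of -1.40 ± 0.37 (standard error; limma adjusted p = 0.0535). It passed with a pseudocount of 5 (0.0414) and after scaling to library totals (0.0322). Without ctrl replicates 1, 2 and 3 in turn the limma adjusted p was 0.293, 0.199 and 0.145. The log2 fold change was -1.64 without IR replicate 1 and -1.17 without IR replicate 2. The other two members, both endolysosomal, overlapped between groups. Slc15a3 was 1190 ± 399 (SD, n = 3) over ctrl, then 1022 and 2235 in IR replicates 1 and 2. Slc15a4, needed for signalling of endosomal Toll-like receptors, was 518 ± 72.4 (SD, n = 3) over ctrl and 400 ± 57 (SD, n = 2) over IR (log2 fold change -0.37, 95% interval -0.94 to 0.20).

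Carriers of iron, copper, magnesium and heme had 11 members. None passed, and 7 had positive fold changes. Slc40a1 (ferroportin), the iron exporter of macrophages, was 314, 334 and 571 in ctrl and 814 and 832 in IR. The IR libraries differed little from each other and lay above ctrl. Its log2 fold change of 1.07 ± 0.29 (SE) had a limma adjusted p of 0.0562, and passed with a pseudocount of 5 (0.0374). Without ctrl replicates 1, 2 and 3 in turn the limma adjusted p was 0.300, 0.222 and 0.0510.

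Slc11a1 (NRAMP1), which removes iron and manganese from the phagosome, was 493.5, 1021 and 936 in ctrl and 1101 and 2493 in IR. IR replicate 1 lay only just above ctrl, and the log2 fold change of 1.09 ± 0.39 (SE) did not pass (limma adjusted p = 0.224). Slc11a2 (DMT1), the importer of ferrous iron in most cells, was 75.2, 137 and 69.3 in ctrl and 38.3 and 44.5 in IR (log2 fold change -1.10, limma adjusted p = 0.432). Slc31a1, the main copper importer, was 105 to 148 in ctrl and 189 and 170 in IR. Slc31a2, a copper carrier of endosomes, overlapped. Slc48a1, which moves heme out of phagolysosomes, was 394 ± 32.2 (SD, n = 3) over ctrl and 428 ± 16.4 (SD, n = 2) over IR. Slc49a4 overlapped too, at 381 to 560 in ctrl and 372 and 478 in IR.

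Amino acid carriers were the largest class, with 29 members, none of which passed. In 7 the IR libraries lay below ctrl and in 3 above, where 16.3% and 15.2% of all genes tested did so. Slc38a6, among the lower, and Slc6a15, among the higher, met the value threshold in a single group. Their direction was thus partly set by the threshold. Slc3a2 (CD98 heavy chain), the shared chaperone of several Slc7 light chains, was 1835, 2080 and 1934 in ctrl and 1475 and 1421 in IR. Although the groups were separated, the log2 fold change of -0.43 ± 0.20 (SE) had a limma adjusted p of 0.315. Slc7a5 (LAT1), its partner for leucine uptake, was 588, 476 and 596.5 in ctrl and 455 and 355 in IR, with a log2 fold change of -0.45 (limma adjusted p = 0.448).

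The Slc38 family, which carries glutamine, alanine and other neutral amino acids, had 5 negative and 2 positive fold changes among 7 members. Slc38a2 (SNAT2) was 1680, 1946 and 1805 in ctrl and 1429 and 1166 in IR (log2 fold change -0.48 ± 0.21, standard error; limma adjusted p = 0.265). Slc38a1 (SNAT1) was 1165, 1755 and 1288.5 in ctrl and 979.6 and 1118 in IR. Slc1a5 (ASCT2) was 308, 437 and 322 in ctrl and 266 and 265 in IR. For each of these the groups were separated, yet the limma adjusted p-values of Slc38a1 and Slc1a5 were 0.411 and 0.595. Slc38a6 was 43.9, 40.2 and 52.6 in ctrl and 9.3 and 0 in IR (limma adjusted p = 0.168). Slc38a4 and Slc38a10 had the positive values. Slc38a4 was 11.8, 0 and 4.3 in ctrl and 14 and 17.6 in IR, separated at a low level (log2 fold change 2.03, limma adjusted p = 0.648), and Slc38a10 overlapped (0.10).

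Other carriers of this class went the other way or stayed within the spread. Slc7a11 (xCT), the cystine importer that feeds glutathione synthesis, was 1124, 2419 and 2316 in ctrl. IR replicates 1 and 2 held 1804 and 5682, so a single library set its mean of 3743. Its log2 fold change of 0.79 ± 0.67 (SE) had a limma adjusted p of 0.664. Slc6a6, the taurine carrier and the member with the highest mean in ctrl, was 2433 ± 159 (SD, n = 3) over ctrl and 2794 ± 297 (SD, n = 2) over IR (95% interval of the log2 fold change -0.20 to 0.60). Slc43a2, a carrier of large neutral amino acids, was 949 ± 151 and 955 ± 88.6. Slc7a7, the light chain for cationic amino acids in macrophages, was low, at 32.9 to 73.5 in ctrl and 32.7 and 84.1 in IR. Slc6a15 was at 0 to 2.9 in ctrl and at 45.8 and 17.6 in IR (limma adjusted p = 0.351).

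**Figure D4:**
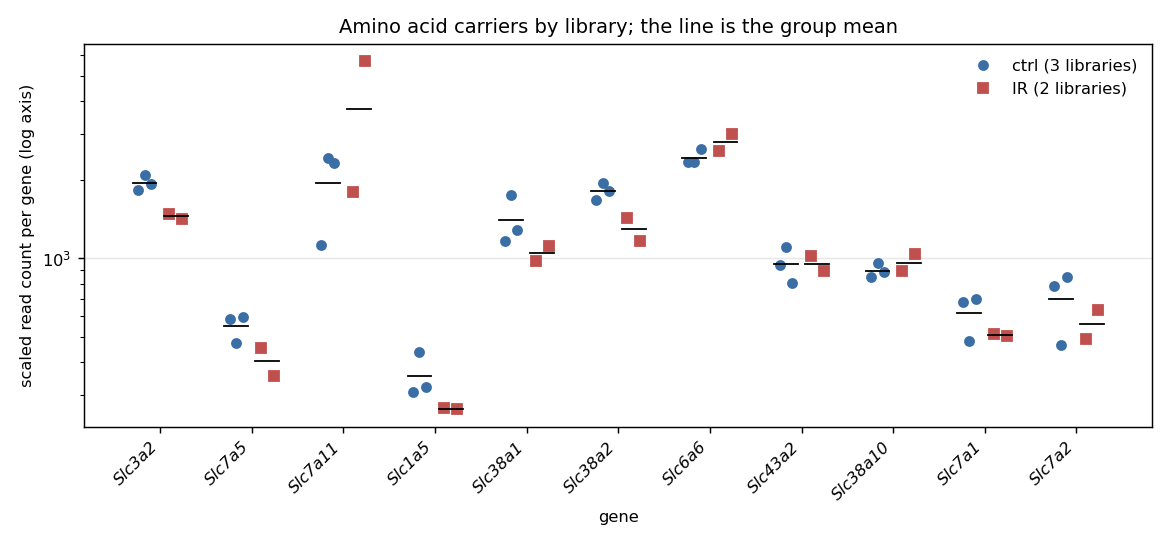
Scaled read count (log axis) of 11 amino acid carriers (x axis) in ctrl (circles) and IR (squares), with group means as lines. Slc3a2, Slc7a5, Slc1a5, Slc38a1 and Slc38a2 are lower in both IR libraries, and Slc7a11 reaches 5682 in IR replicate 2 but 1804 in IR replicate 1.

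Nucleoside carriers had 5 members and none passed. Slc28a2 (CNT2), a sodium-driven importer of purine nucleosides, was 166, 347 and 255.5 in ctrl and 379 and 600.2 in IR (log2 fold change 0.96 ± 0.35, standard error; limma adjusted p = 0.184). Slc28a2b, a neighbouring gene of the same family on chromosome 2, was 22.8, 24.7 and 23.3 in ctrl and was listed at 0 in both IR libraries. Reads may be shared between the pair, so the split between them is uncertain. Slc29a1 (ENT1), the widespread equilibrative carrier that also takes up adenosine, was 191 ± 50.6 (SD, n = 3) over ctrl and 206 ± 122 (SD, n = 2) over IR. Its lysosomal relative Slc29a3 was 194 ± 32.7 and 246 ± 49.1. Slc29a4 was 4.5 to 55.1 in ctrl and 2.8 and 0 in IR.

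Carriers of fatty acids and choline had 7 members. All 7 had positive fold changes, where 5976 of the 12777 genes tested had, and none passed. The class median was 0.64. Slc27a2, Slc44a3 and Slc44a4 had low means of 9.58, 26.5 and 24.6 over the 5 libraries. For Slc27a1, Slc27a2 and Slc27a4 the 2 IR libraries lay on either side of the ctrl mean on the log2(value + 1) scale. Slc44a1 (CTL1), a choline importer, was 226.5, 444 and 298.5 in ctrl and 543 and 727 in IR. The groups were apart, with a log2 fold change of 1.01 ± 0.31 (standard error; limma adjusted p = 0.107). Slc44a2, which carries choline in mitochondria and is known as a neutrophil surface antigen, was 1481, 1138 and 1724 in ctrl and 1706 and 2027 in IR, so the groups overlapped. Slc44a4 was 0, 12.8 and 1.4 in ctrl and 54.2 and 54.7 in IR (limma adjusted p = 0.224). The fatty acid carrier Slc27a4 was 340 ± 48.4 (SD, n = 3) over ctrl, then 270 and 622 in IR replicates 1 and 2. Slc27a1 stayed between 32.9 and 72.0 in all 5 libraries.

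Nucleotide sugar carriers of the Slc35 family, with the sugar phosphate carriers of Slc37 and the acetyl-CoA carrier Slc33a1, had 25 members and none passed. Their median log2 fold change was 0.18. Slc35e1 was the most abundant, at 506, 602 and 649 in ctrl and 574 and 847 in IR. Slc35c2, which serves the fucosylation pathway, was 340 ± 26.2 (SD, n = 3) over ctrl and 347 ± 61.7 (SD, n = 2) over IR. Slc35e2 had a log2 fold change of 0.08, with a limma adjusted p of 0.942. Slc35a1, the CMP-sialic acid carrier of the Golgi apparatus, was 17.3 to 82.9 in ctrl and 63.6 and 79.0 in IR. Slc33a1 was 80.3, 192 and 115 in ctrl and 64.5 and 33.6 in IR (log2 fold change -1.36, limma adjusted p = 0.281). Slc35f5 was 32.1, 10.9 and 25.5 in ctrl and 74.8 and 186 in IR, separated but not past the threshold (limma adjusted p = 0.146).

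Carriers of bicarbonate, chloride and other anions had 16 members, with 8 positive and 8 negative fold changes and no call. Slc4a7, a sodium bicarbonate carrier that keeps phagosomes acidic in macrophages, was 560, 592 and 594 in ctrl. IR replicates 1 and 2 held 221.5 and 520.3, so the lower IR mean came mainly from the former (log2 fold change -0.77, limma adjusted p = 0.234). Without IR replicate 2 it passed (limma adjusted p = 0.0238). Slc12a7, which moves potassium with chloride, was 484, 452 and 503 in ctrl and 334 and 306 in IR (limma adjusted p = 0.333).

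Among the 11 exchangers of sodium, protons and calcium, none passed and none had an unadjusted p under 0.05. The endosomal exchanger Slc9a9 was 319 ± 42.1 over ctrl and 299.9 ± 42.6 over IR. Slc9a8, of the Golgi apparatus, was 180 and 523 in the 2 IR libraries, on either side of its ctrl values of 267 to 419. Slc8a2 was low in ctrl, at 1.7 to 16.7, and was listed at 0 in both IR libraries.

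The 14 carriers of organic ions, amines, bile acids and urea, the 7 vitamin carriers and the 3 phosphate carriers gave no call. Slc22a15 was 177, 603 and 247 in ctrl and 574 and 875 in IR, where ctrl replicate 2 lay within the range of IR (log2 fold change 1.25, limma adjusted p = 0.197). Slc14a1, a urea carrier, was 41.1 to 84.0 in ctrl, then 54.2 and 0 in IR replicates 1 and 2. Slc10a3, of the bile acid family, was 115 ± 11.5 (SD, n = 3) over ctrl and 119 and 63.8 in IR. Slc10a7, of the same family, was 96.1 ± 32.7 (SD, n = 3) over ctrl and 207.5 and 58 in IR. For Slc10a7 the IR libraries lay on either side of every ctrl library. Slc10a5 was at 0 to 11.8 in ctrl and at 7.5 and 66 in IR. Among vitamin carriers, Slc23a2, for ascorbate, was 365 ± 133 (SD, n = 3) over ctrl and 353 ± 57.4 (SD, n = 2) over IR. The folate carrier Slc19a1 was at 0 in 1 ctrl and 1 IR library, and the thiamine carrier Slc19a2 was 62.5 to 88.6 in ctrl and 105 and 46.2 in IR. Slc46a3, of lysosomes, ranged from 13.7 to 150.5 within ctrl and was 78.5 and 76.5 in IR.

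The phosphate importer Slc20a1 was 420.0, 1074 and 605 in ctrl and 497 and 519 in IR. Slc20a2 was 25.6 to 93.9 in ctrl and 70.1 and 4.2 in IR. Slc34a2, the phosphate carrier of alveolar type 2 epithelium, is a gene of cells that the sort should remove. It was 349.9, 22.8 and 169 in ctrl and 309 and 83.2 in IR. In the same libraries Sftpc, the surfactant gene that defines those cells, was 2074, 248 and 779, and 1476 and 166. Both genes were highest in ctrl replicate 1. Of the other type 2 cell markers, Abca3, Etv5, Napsa, Sftpa1, Sftpb and Sftpd were highest in IR replicate 1, with Sftpb at 3586 there and 989.6 in ctrl replicate 1. All 8 type 2 cell markers were detected, and their sum was 3733 to 6897 in ctrl and 10731 and 4199 in IR. Their part in the level of Slc34a2 was not tested. Slc4a1 (band 3), the anion exchanger of red cells, was 32.1, 31 and 275 in ctrl and 163 and 298.5 in IR, and the globin gene Hbb-bs was 2161, 955.5 and 7185, and 2218 and 3999. Ctrl replicate 3 was the highest ctrl library for both genes. The 6 erythroid markers, among them Slc4a1 itself, summed to 1947.5 to 12356 in ctrl and 4137 and 7859.5 in IR, and their part was not tested.

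The 2 IR libraries differed from each other in many members. IR replicate 2 was the higher in 90 members and IR replicate 1 in 84, and 2 members were at 0 in both. With IR replicate 1 left out, 16 of 165 members passed, 8 higher and 8 lower, or 9.7%, where 8.13% of all genes passed. With IR replicate 2 left out, 1 of 169 passed, or 0.592%, where 0.767% of all genes did. In these fits the remaining IR library is assumed to vary like the ctrl libraries. Slc7a11, Slc2a1, Slc2a3, Slc11a1 and Slc44a1 were among the 8 higher members, and Slc30a5, Slc30a7, Slc30a1, Slc15a2 and Slc38a6 among the 8 lower. Slc4a7 was the member that passed with IR replicate 2 left out.

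**Figure D5:**
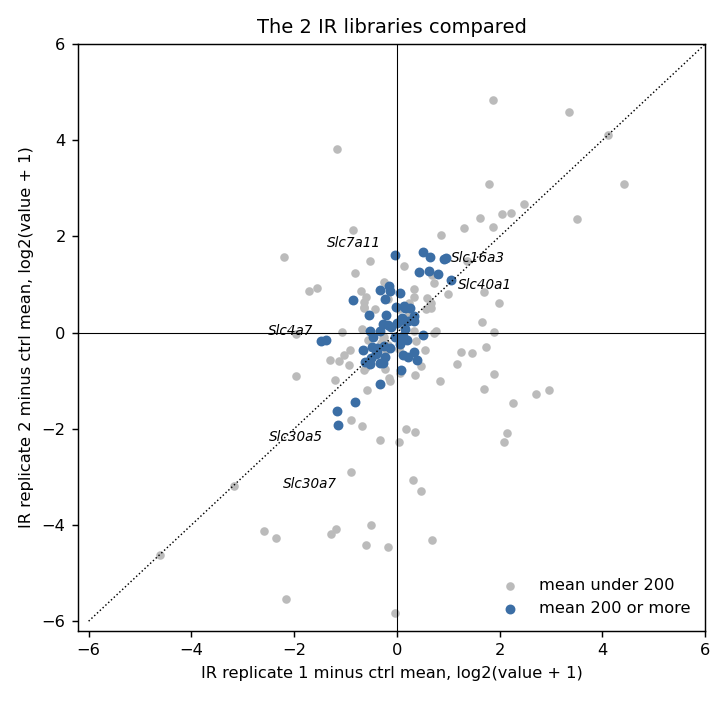
Difference of each IR library from the mean of ctrl on the log2(value + 1) scale, IR replicate 1 on the x axis and IR replicate 2 on the y axis, with 1 point per solute carrier (blue for a mean of 200 or more). Slc40a1 lies near the dotted line of equal differences (1.05 and 1.09) and Slc7a11 is far from it.

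Levels of different genes were compared per kilobase of exon (GENCODE vM21). On that scale Slc3a2 had the highest ctrl mean of all members, at 552 per kilobase, followed by Slc2a1 (349), Slc6a6 (288), Slc2a3 (259) and Slc11a1 (220). In IR the order was Slc11a1 (485), Slc2a1 (472), Slc2a3 (471), Slc16a3 (447) and Slc3a2 (410). Slc3a2 ranked 1 in each ctrl library and in IR replicate 1, and 7 in IR replicate 2. Slc16a3 ranked between 6 and 13 in ctrl, and 2 and 4 in IR. Slc11a1 ranked 5 to 11 in ctrl, then 6 and 1 in IR replicates 1 and 2. The neighbouring means in IR lie closer together than the spread between the IR libraries, so their order is not resolved.

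Of the 176 members, 127 reached the threshold of 10 in all 5 libraries. A further 2 reached it in both IR libraries and in no ctrl library, and 8 in ctrl alone, so their direction was partly set by the threshold. Another 7 reached it in both IR libraries and 1 ctrl library, among them Slc16a11, Slc16a12, Slc44a4, Slc30a6 and Slc38a4. In 14 more it was reached in 2 or 3 ctrl libraries and 1 IR library. For these too the threshold may bear on the direction. Just inside it were Slc43a1 and Slc36a3, whose second-highest values were 10.1 and 10.2. Just outside were Slc27a3 and Slc5a4a, with 9.3 and 9.1. Of the 37 rows below the threshold, 2 were at 0 in all libraries and 25 reached 10 in a single library. The highest such value was 76.7, for the glutamate carrier Slc1a3 in IR replicate 2. Finally, 3 members are not carriers by name. Slc4a1ap encodes an adaptor protein, and Slc7a6os and Slc36a3os are named as opposite-strand genes. None of the 3 passed.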

How the data were processed

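Libraries for RNA-seq came from a strand-aware low-input kit, per the labels' protocols. HISAT2, HTSeq and mm10 are named without role or version, per the submitters' processing notes; the sources used here do not state annotation, strand setting or scaling. The deposited signal, a read count per gene that the authors scaled, has 1 decimal. Low values lay near multiples of a step but drifted from them, so whole reads could not be recovered. For that reason no count test was run, and counting error is unknown.

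Genes with at least 10 in at least 2 libraries (12777) were fitted as log2(value + 1) with limma 3.58.1 (R 4.3.3; mean trend, robust estimation, statmod 1.5.0), two-sided, with Benjamini-Hochberg adjustment over all genes. Fold changes on this scale understate low genes. In 10 simulations of 12777 genes with 200 changed, 17.3% of 2-fold and 53.2% of 4-fold changes were recovered and 6.62% of calls were false. The simulated means and spread of both groups were taken from the ctrl libraries. Over all genes the median absolute log2 difference was 0.600 between the IR libraries and 0.383 to 0.508 between pairs of ctrl libraries. These rates may therefore be too favourable for these data. An exact permutation test of 3 against 2 libraries cannot go below 0.1. Replicates were numbered in accession order.

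Members and lists were chosen with earlier results of these data known. Substrate classes follow the family number. Named were called members, the 3 most abundant per class, the 6 largest positive and 6 largest negative fold changes that were not called, the 2 nearest either side of the threshold, and genes listed in advance; Slc43a2, Slc4a1, Slc48a1, Slc31a1, Slc31a2, Slc33a1, Slc35f5, Slc30a2, Slc30a4, Slc30a7, Slc30a9, Slc39a1, Slc38a4, Slc38a10, Slc39a12 and Slc39a14 were chosen after their values were seen. Coordinates and promoters are from RefSeq (GRCm38.p6, the assembly of mm10; all 176 symbols matched) and exon lengths from GENCODE vM21. Some genes that the naming rule selects are not reported here. Alternatives covered the pseudocount, filter, scaling, robust estimation, library weights and each library left out.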

Additional observations from a re-analysis of the deposited data

How the results depend on the processing

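The median log2 fold change of the solute carriers moved by less than the spread between ctrl libraries under all 14 alternatives (-0.14 to 0.02). Their count of calls, 2 in the main fit (1 higher, 1 lower), was 1 with a pseudocount of 0.5 (0 higher), with no filter (0 lower), with a threshold of 50 (0 higher) and with robust estimation off (0 lower). It was 5 with a pseudocount of 5 (3 higher, 2 lower), and 3 after scaling to library totals (1 higher, 2 lower). Leaving out each library in turn gave 0 to 16 calls (0 to 8 higher, 0 to 8 lower), and 19 to 1006 for all genes tested. These were 0 without ctrl replicate 1 or 2, 1 without ctrl replicate 3, 16 without IR replicate 1 and 1 without IR replicate 2, beside 19, 23, 95, 1006 and 96 of all genes. Scaling to library totals shifted the median of all genes from -0.05 to -0.17 and its calls from 146 higher and 46 lower to 141 higher and 116 lower. The cause was not tested. Over 90 single-gene results, not all of them named above, 1185 alternative values kept their side of the threshold, 12 lost a call and 20 gained one, and no called gene changed sign. The edgeR alternative was not run, since whole reads were not recovered. No paired analysis was possible because the labels give no shared replicate numbers. With scaled values the counting error is unknown, and the 60 members with a mean under 50 gave no call.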

Other observations

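Transporters classed with solute carrier families under other symbols, and proteins that fold or regulate them, gave 32 genes above the threshold, from a list of such genes. None passed the limma test, and 2 had an unadjusted p under 0.05; 13 had positive and 19 negative fold changes. Bsg (basigin), the chaperone that brings Slc16a1 and Slc16a3 to the membrane, was 1077 ± 96.9 (SD, n = 3) over ctrl and 1137 ± 27.7 (SD, n = 2) over IR. Its log2 fold change was 0.08 (limma adjusted p = 0.898). Emb (embigin), the related chaperone of monocarboxylate carriers, was 1948, 2275 and 2525 in ctrl and 3474 and 3306 in IR. Both IR libraries lay above ctrl, with a log2 fold change of 0.60 ± 0.20 (standard error; limma adjusted p = 0.133). Txnip, which drives the removal of glucose carriers from the cell surface, was 10680 ± 1230 (SD, n = 3) and 11284 ± 1208 (SD, n = 2).

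Xpr1, the phosphate exporter, was 905, 1083 and 1088.5 in ctrl and 1118 and 1480 in IR (limma adjusted p = 0.511). Npc1, which releases cholesterol from lysosomes, overlapped between groups. Letm1, a cation exchanger of mitochondria, was 846 ± 103 (SD, n = 3) over ctrl and 660 ± 84.6 (SD, n = 2) over IR (limma adjusted p = 0.512).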
